A study of Sus scrofa with 2 samples.

Results

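SPP1, SCG2, CXCL14, PLOD2, SLC24A1, DCLK1, RASGRF2 and C12orf75 are 8 of the 22342 genes counted in somatic cells of pig antral follicles, and each was found by its symbol in both follicles. They were chosen because they led 1 cluster in an earlier clustering of these same cells, so their levels by cluster and their co-expression are given as description only, with no test. The values below come from 17205 cells, those barcodes with 2000 to 5000 detected genes and under 7% of their UMIs (counted molecules) from mitochondrial genes. Both follicles came from 1 pig, a Landrace × Yorkshire gilt at puberty, 210 days old and primed with pregnant mare serum gonadotropin. They were healthy and over 7 mm wide, and the somatic cells of each made 1 library with 10x 3′ v3.1 chemistry. The labels number the follicles 1 and 2, and the deposited names link these numbers to AF75 and AF76. With no replicate follicle, no test between AF75 and AF76 was made.

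Mural granulosa cells line the follicle wall and make steroids, and cumulus granulosa cells surround the oocyte. SPP1 (osteopontin), SCG2 (secretogranin II) and CXCL14 (a chemokine) encode secreted proteins: osteopontin binds integrins and CD44 and is also known from macrophages, and secretogranin II is a granin stored in the dense-core granules of neuroendocrine cells and processed into peptides. PLOD2 encodes a lysyl hydroxylase that prepares collagen for crosslinking, SLC24A1 a potassium-dependent sodium-calcium exchanger, DCLK1 a doublecortin-like kinase that binds microtubules, and RASGRF2 an exchange factor that activates RAS and RAC. C12orf75 encodes a small protein, OCC1, of little known function.

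The labelled somatic cells carried granulosa markers. Of 10 granulosa genes 9 were in the gene list, summing to 28976 CPM (UMIs of a gene scaled to all UMIs of the cells) in AF75 and 30525 in AF76. INHA was the most abundant of these, at 19854 and 23176 CPM, and AMH had no UMI in AF75. Granulosa markers were high in both follicles, except in the 681 AF76 cells of cluster 3 (clusters are described below), where they summed to 4973 CPM with INHA at 2226 CPM. The median cell held 11254.5 UMIs in AF75 (9362 cells) and 13902 in AF76 (7843 cells). The libraries shared 56 barcodes of all deposited and 18 within the limits.

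Among the secreted proteins, SPP1 was at 5.92 CPM (5.47–6.39) for AF75 and 16.8 CPM (16.1–17.6) for AF76. Here and below, ranges in parentheses are 95% intervals that cover counting error only. SPP1 was thus low in AF75 and higher in AF76, with a ratio of AF76 to AF75 of 2.85 (2.60–3.12), 1.51 on the log2 scale. A single AF76 barcode gave 317 of the 1835 SPP1 UMIs (17.3%). It also held 224 UMIs of 16 leukocyte markers, 62 of C1QB and 111 of FABP4, against 13 of INHA. Barcodes with at least 10 UMIs from at least 3 leukocyte markers numbered 1 in AF75 and 10 in AF76. Without them SPP1 was at 5.92 and 14.0 CPM, a ratio of 2.36 (2.15–2.59), so SPP1 stayed higher in AF76. Over all cells the leukocyte markers summed to 13.4 CPM in AF75, with a UMI for 15 of 16, and to 16.9 CPM in AF76, for 14. CD14 was the most abundant, at 9.35 and 6.84 CPM. MS4A1 had no UMI in either follicle and CD3E none in AF76. Their part in the rest of the SPP1 difference was not tested.

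SCG2 was at 376 CPM (372–379) for AF75 and 635 CPM (630–639) for AF76. SCG2 was higher in AF76, at 1.69-fold (1.67–1.71). SPP1 and SCG2 were the 2 of the 8 genes past 1.5-fold, both upward. Of 10049 genes with at least 200 UMIs in either follicle, 1.8% were at least 1.5-fold higher in AF76 and 3.85% at least 1.5-fold lower, and the median absolute log2 ratio was 0.12. CXCL14 was at 24.3 CPM (23.4–25.2) for AF75 and 18.1 CPM (17.3–18.9) for AF76, a ratio of 0.743 (0.701–0.788). CXCL14 was lower in AF76, opposite to SPP1 and SCG2.

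PLOD2 was at 57.4 CPM (56.0–58.9) for AF75 and 55.8 CPM (54.4–57.2) for AF76. These intervals overlap, and the ratio was 0.972 (0.938–1.01). SLC24A1 was at 43.6 CPM (42.4–44.8) and 34.4 CPM (33.3–35.6), a ratio of 0.790 (0.757–0.825). DCLK1 was at 239 CPM (236–242) and 178 CPM (175–180), a ratio of 0.744 (0.730–0.758). C12orf75 was at 40.6 CPM (39.4–41.8) and 30.4 CPM (29.4–31.4), a ratio of 0.749 (0.716–0.783). SLC24A1, DCLK1 and C12orf75 were thus lower in AF76 by a similar factor. RASGRF2 was at 13.0 CPM (12.3–13.7) and 19.4 CPM (18.6–20.3). RASGRF2 was higher in AF76, with a ratio of 1.499 (1.40–1.60) that lies at the 1.5-fold line.

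Few cells carried most of the UMIs of SPP1 and CXCL14. CXCL14 had a UMI in 4.11% of AF75 cells (3.72–4.53) and 3.32% of AF76 cells (2.93–3.74), and the 1% of cells with most CXCL14 held 85.5% and 88.6% of its UMIs. SPP1 had a UMI in 2.26% and 3.10% of cells, and its top 1% held 81.9% and 88.0%. SCG2 had a UMI in 30.4% and 36.0% of cells, and its top 1% held 39.8% and 34.3%. The other genes were less concentrated than SPP1 and CXCL14. DCLK1 had a UMI in 54.4% and 43.6% of cells, with 15.5% and 19.2% of UMIs in the top 1%. PLOD2 had a UMI in 30.3% and 27.0%, with 24.9% and 30.1% in the top 1%, and C12orf75 in 24.8% and 22.7%, with 19.0% and 21.1%. DCLK1 and C12orf75 were the least concentrated. SLC24A1 had a UMI in 21.1% and 20.7%, with 33.8% and 31.1% in the top 1%, and RASGRF2 in 9.94% and 15.1%, with 25.9% and 22.3%.

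Thinned to 5000 UMIs per cell, which leaves out 19 cells of AF75 and 105 of AF76, these shares keep their follicle order for every gene. SCG2 was then detected in 19.5% and 22.8% of cells and DCLK1 in 38.6% and 28.3%. SPP1 was detected in 1.33% and 1.89%, CXCL14 in 2.52% and 1.78%, and RASGRF2 in 5.30% and 7.31%. SCG2, SPP1 and RASGRF2 were detected more often in AF76, and DCLK1 and CXCL14 less often. PLOD2 was detected in 17.1% and 14.6%, SLC24A1 in 12.1% and 9.96%, and C12orf75 in 14.1% and 11.2%. Among the 10 AF76 leukocyte barcodes, at a median of 8538.5 UMIs, PLOD2 had a UMI in 2, SPP1, SCG2, CXCL14, SLC24A1 and C12orf75 in 1 each, and DCLK1 and RASGRF2 in none.

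High cells held most of the SCG2 UMIs. Cells with at least 10 SCG2 UMIs, a limit chosen after the values were seen, numbered 643 in AF75 and 813 in AF76 and held 91.4% and 94.9% of its UMIs. Near that limit, 63 and 75 cells had 7 to 9 SCG2 UMIs and 44 and 38 had 10 to 12. Cells with 50 or more SCG2 UMIs, 259 and 418 of them, alone held 67.7% and 79.6%. At the same limit DCLK1 had 740 and 553 high cells, with 56.3% and 62.1% of its UMIs. SCG2 thus sits at high counts in a minority of granulosa cells, and most cells had none. INHA in the cells with at least 10 was at 21295 and 24577 CPM, against 19741 and 22998 in the rest. The doublet score called 14.2% and 10.8% of them, against 6.9% of all cells.

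Levels were then set out by 6 clusters made without these 8 genes among the variable genes. Cluster 0 had 5970 and 5582 cells in AF75 and AF76, and TGFB3, ENPP2 and IL33 led it, so it is called mGC-like (mural). Cluster 2, led by PTGS2, CALCRL and ALPK2 and called cGC-like (cumulus), had 884 cells in AF75 and 30 in AF76. Cluster 3, led by DEFB1, CCL26 and CEMIP, had 1 and 681, so clusters 2 and 3 come almost wholly from 1 library each and cannot be told apart from it. Cluster 1, led by TMEM178A, HBB and ENSSSCG00000031023, had 1902 and 1275 cells. Leading genes were ranked on the pooled UMIs of both follicles, and HBB owes its place to AF76. In AF75 HBB was at 1.86 CPM in cluster 1, below the 2.86 CPM of cluster 0. In AF76 it was at 120 CPM in cluster 1, against 32.1 CPM in cluster 0. Cluster 4, led by TOP2A, CDCA8 and DIAPH3, is cycling-like, with 454 and 121. Cluster 5 had 151 cells in AF75 (1.61%) and 154 in AF76 (1.96%).

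**Figure D1:**
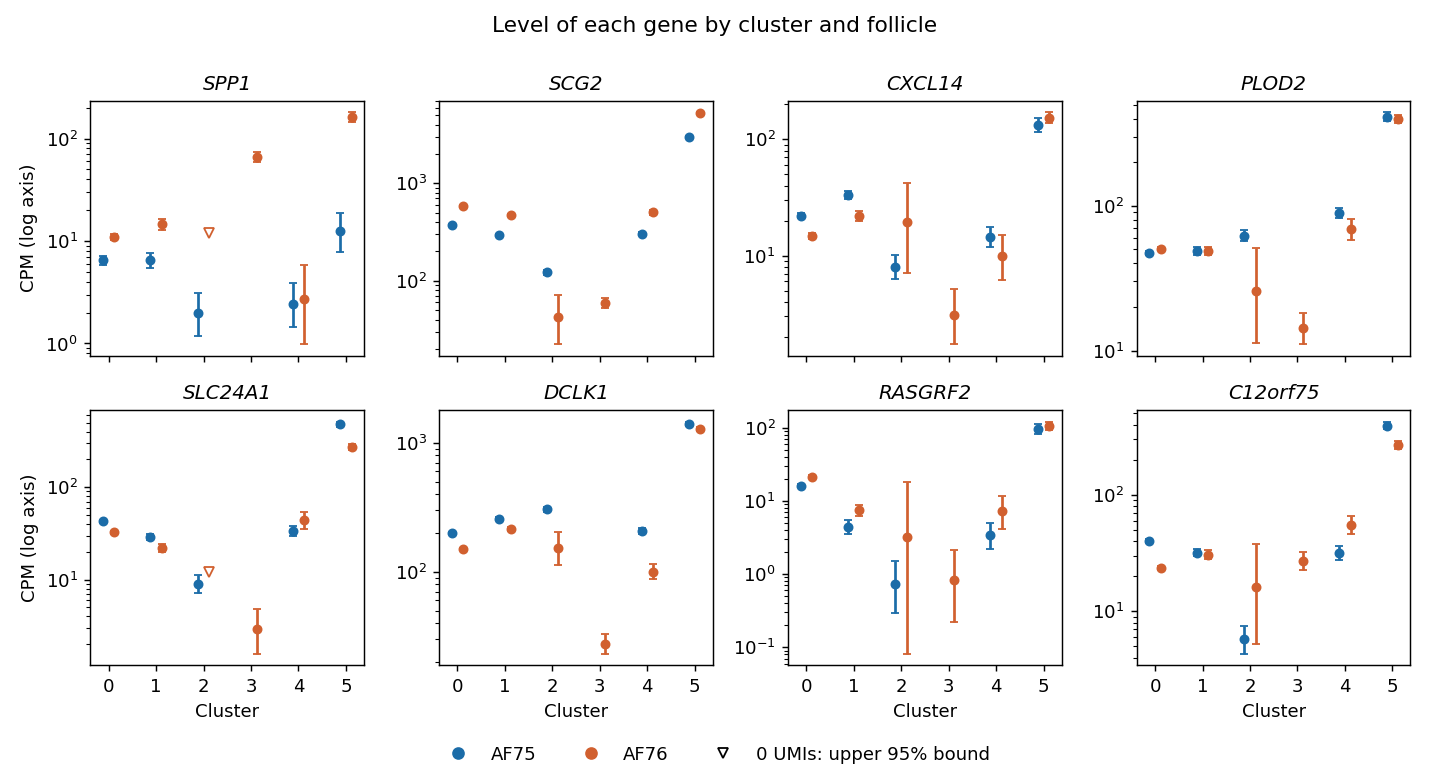
Level of each gene in each cluster and follicle, with 95% intervals for counting error. Clusters with fewer than 20 cells in a follicle are not drawn.

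All 8 genes had their highest level in cluster 5, in both follicles. As the genes were chosen for leading a cluster of these cells, this is what the choice used. In cluster 5 SCG2 was at 3006 CPM for AF75 and 5287 CPM for AF76. CXCL14 was there at 133 and 154 CPM, and SPP1 at 12.5 CPM (7.81–18.9) and 163 CPM (146–181). SPP1 in cluster 5 was thus somewhat above its level elsewhere in AF75 and far above it in AF76. In AF75 cluster 5 held 22 SPP1 UMIs, and in AF76 349, of which 1 barcode gave 199. Without the top barcode of each follicle SPP1 was at 9.11 and 70.7 CPM in cluster 5. CXCL14 likewise rests in part on 1 AF76 barcode with 147 of its 330 UMIs there, and without the top barcodes it was at 97.6 and 85.9 CPM.

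The enzyme, transporter, kinase and exchange factor genes were high in cluster 5 in both follicles. PLOD2 was there at 412 and 397 CPM, DCLK1 at 1398 and 1286 CPM, and RASGRF2 at 95.8 and 106 CPM. SLC24A1 was at 478 and 274 CPM, and C12orf75 at 393 and 268 CPM. SLC24A1 and C12orf75 were lower in AF76 within cluster 5, and DCLK1 slightly so. PLOD2 had a UMI in 86.1% and 85.7% of cluster 5 cells. CXCL14 was found in few cells even there, 12.6% and 11.7%.

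In the other clusters the order differed from gene to gene. SCG2 was at 375 and 589 CPM in cluster 0, and its levels in cluster 1 (297 and 473 CPM) and cluster 4 (305 and 504 CPM) overlap in their intervals. SCG2 was low in cluster 2, at 122 CPM in AF75, and in cluster 3, at 59.7 CPM in AF76. SPP1 was near equal in clusters 0 and 1, in AF75, at 6.46 and 6.52 CPM, and without the top barcode of each cluster it was at 10.3 and 10.8 CPM in AF76. SPP1 and RASGRF2 were low in cluster 4, SPP1 at 2.45 and 2.69 CPM (18 and 6 UMIs) and RASGRF2 at 3.41 and 7.18 CPM. In cluster 2 of AF75 they were lower still, at 1.99 and 0.731 CPM, and RASGRF2 was at 0.827 CPM in cluster 3 of AF76. RASGRF2 was next highest in cluster 0, at 16.1 CPM (15.2–17.1) for AF75 and 21.5 CPM (20.5–22.5) for AF76, and low in cluster 1, at 4.42 and 7.47 CPM. CXCL14 was next highest in cluster 1, at 33.2 and 22.1 CPM, against 22.1 and 14.6 CPM in cluster 0. RASGRF2 and CXCL14 therefore differ in which large cluster is higher, and both follicles show it. PLOD2 was next highest in the cycling-like cluster 4, at 89.3 CPM (82.6–96.4) and 68.7 CPM (58.2–80.4), the latter 56.1 CPM without the top barcode, and its levels in clusters 0 and 1 overlap in both follicles. DCLK1 was next highest in the cGC-like cluster 2 in AF75, at 304 CPM (293–315), while SLC24A1 was low there, at 8.98 CPM, as was C12orf75, at 5.75 CPM. In AF76 cluster 2 holds 30 cells, and SPP1 and SLC24A1 had no UMI there, where 3 counts set the limit. In cluster 3 of AF76 DCLK1 was at 27.7 CPM, PLOD2 at 14.3 CPM and SLC24A1 at 2.89 CPM. SPP1 was at 66.5 CPM in cluster 3, from 322 UMIs, and at 1.05 CPM (0.341–2.45) without the leukocyte barcodes.

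The markers of cluster 5 do not give it a mural or cumulus name. The 6 mural markers (AREG, CYB5A, TGFB3, CYP11A1, IL33 and ENPP2) summed to 6596 CPM for AF75 and 7000 CPM for AF76 there, against 9295 and 11892 CPM in cluster 0. TGFB3, ENPP2 and IL33 led cluster 0 in these same cells, so values below those of cluster 0 say little about a mural name. In cluster 5 TGFB3 had 34.6 and 70.0 CPM, compared with 159 and 192 in cluster 0, and IL33 1670 and 1247 CPM, compared with 3102 and 3126. CYP11A1 was higher in cluster 5, at 2410 and 2305 CPM, against 1768 and 1710 CPM. The cumulus markers summed to 1212 and 905 CPM in cluster 5, against sums of 843 and 478 CPM in cluster 0. VCAN itself had 1098 and 843 CPM in cluster 5 and 590 and 248 CPM in cluster 0. Compared with other clusters the picture differs. In AF75 the mural sum of cluster 5 was above those of clusters 1, 2 and 4 (4097, 2347 and 4186 CPM) and its cumulus sum below theirs (4913, 14705 and 5325 CPM). In AF76 its mural sum was near those of clusters 1 and 4 (6936 and 7013 CPM), and its cumulus sum lay between theirs (1360 and 664 CPM). Clusters 2 and 3 of AF76 had lower mural sums (5400 and 2706 CPM), with cumulus sums of 2512 and 806 CPM. The steroid enzyme gene CYP11A1 and the cumulus marker VCAN were thus above cluster 0, and TGFB3 and IL33 below it. Its leading genes were ALDH1A2, SLC24A1, C12orf75, SCG2, SPP1 and ESM1. The label "secretory mural genes" fits SPP1, SCG2 and CXCL14 as secreted proteins and was not settled by these markers as to mural, so the genes are named here one by one.

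Cluster 5 held only a small part of each gene's UMIs. It held 12.7% of SCG2 UMIs in AF75 and 16.4% in AF76, 3.34% and 19.0% of SPP1, and 8.69% and 16.8% of CXCL14. It held 17.4% and 15.6% of SLC24A1 and 15.3% and 17.4% of C12orf75. For PLOD2 the shares were 11.4% and 14.0%, for DCLK1 9.28% and 14.2%, and for RASGRF2 11.7% and 10.7%. Of the 643 and 813 cells with at least 10 SCG2 UMIs, 44 and 47 were in cluster 5. High SCG2 is therefore mostly outside it, in cluster 0 (440 and 633 cells) and cluster 1 (115 and 116).

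Between the follicles within cluster 5, SPP1 had a ratio of 13.1 (8.49–21.1), or 7.76 (4.63–13.9) without the top barcodes, and SCG2 one of 1.76 (1.70–1.82). SLC24A1 was at 0.572 (0.514–0.636) and C12orf75 at 0.684 (0.611–0.765). Of 1754 genes, 0.969% were at least 1.5-fold higher in AF76 within cluster 5 and 0.741% at least 1.5-fold lower. CXCL14 was at 1.16 (0.976–1.37), or 0.881 (0.711–1.09) without the top barcodes, PLOD2 at 0.964 (0.872–1.07), DCLK1 at 0.920 (0.871–0.972) and RASGRF2 at 1.10 (0.899–1.35). These 4 were nearer to 1, and of their intervals only that of DCLK1 leaves out 1.

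Co-expression across cells was weak by Pearson r. Of 28 gene pairs, 5 had a Pearson r of at least 0.1 in both follicles, over 9362 and 7843 cells that share a library and differ in depth. These were SLC24A1 with DCLK1 (r = 0.157 and 0.178), PLOD2 with C12orf75 (0.151 and 0.176), PLOD2 with DCLK1 (0.150 and 0.164), PLOD2 with SLC24A1 (0.123 and 0.134) and DCLK1 with RASGRF2 (0.101 and 0.133). None of the 5 includes a secreted protein. With cluster 5 left out, 0 of 28 reached 0.1 in both. SLC24A1 with DCLK1 was then at 0.0921 and 0.108, the largest. Cells with at least 10 UMIs of a gene could differ more from the rest. PLOD2 was at 6.55- and 9.02-fold in the 25 and 21 such cells of C12orf75, of which 19 and 15 were in cluster 5. SCG2 was at 0.149- and 9.04-fold in the 11 and 36 such cells of SPP1. The AF75 fold rests on 9 SCG2 UMIs in 11 cells. Of these cells 36.4% had an SCG2 UMI, against 30.4% of the rest, so the fold shows no lower detection.

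**Figure D2:**
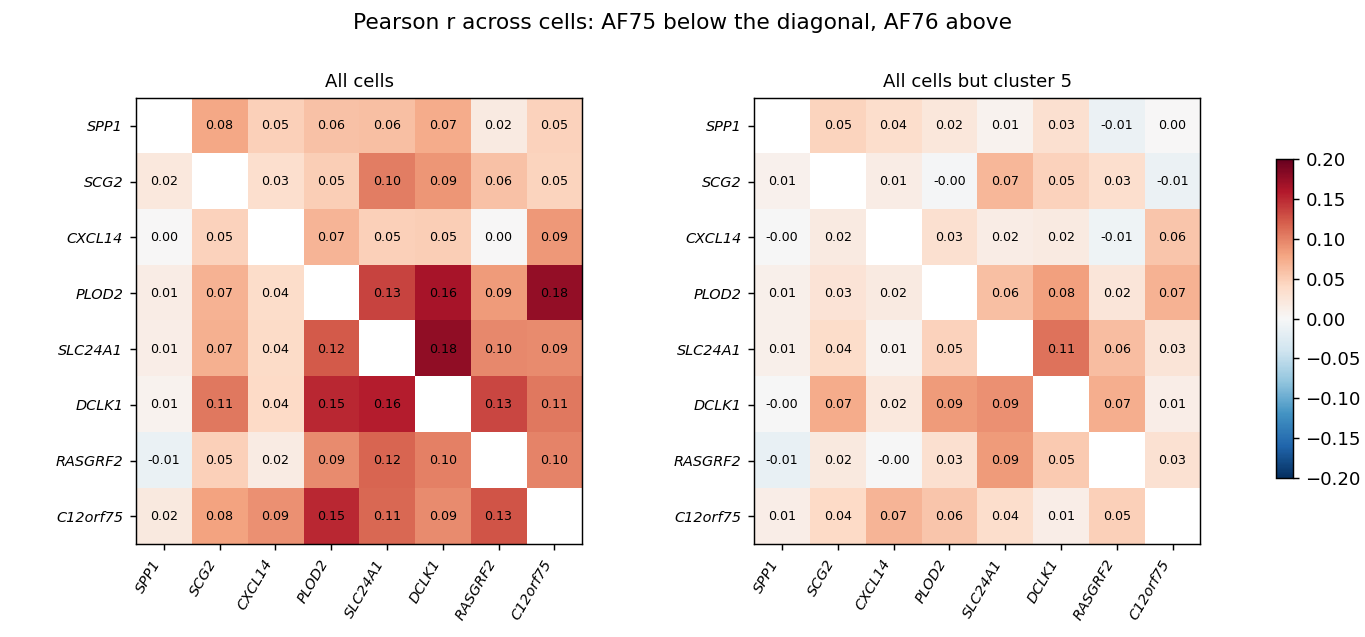
Pearson r of each gene pair across cells, for all cells and with cluster 5 left out. AF75 lies below the diagonal and AF76 above it.

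Within cluster 5, 8 pairs reached 0.1 in both, over 151 and 154 cells. SLC24A1 with DCLK1 was at 0.244 and 0.191, and SPP1 with SCG2 at 0.172 and 0.239, from 5 and 17 cells that had both. SLC24A1 went the other way with RASGRF2 (-0.173 and -0.0906) and C12orf75 (-0.0880 and -0.111). SLC24A1 and C12orf75 were still found together in 92 and 77 cells, and so weak an r in sparse counts is no finding. In barcodes under 2000 genes, which the clustering did not use, 0 pairs reached 0.1 in both, at a median of 1303 and 1180 UMIs. Above 5000 genes 6 did, at a median of 30851 and 30612.5 UMIs.

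Cells with the most SCG2 had more DCLK1 than cells with none. DCLK1 went from 224 CPM in AF75 cells with no SCG2 UMI to 485 CPM in those with 50 or more, and from 165 to 295 CPM in AF76. These groups differ in their share of cluster 5, where DCLK1 was highest. Of cells with no SCG2 UMI, 74 of 6519 in AF75 and 77 of 5017 in AF76 were in cluster 5. Of those with 50 or more, 24 of 259 and 38 of 418 were. The part of cluster 5 in these values was not tested. SLC24A1 took an uneven course: it was at 38.3 CPM with no SCG2 UMI, 110.3 CPM with 5 to 9, 53.3 CPM with 10 to 49 and 109 CPM with 50 or more in AF75, and at 28.4, 79.1, 32.3 and 84.0 CPM in AF76. SPP1 in AF75 had no steady course, at 5.81 CPM with no SCG2 UMI, 26.1 CPM with 5 to 9, 9.77 CPM with 10 to 49 and 4.18 CPM with 50 or more. A single AF75 barcode held 40 SPP1 UMIs, so a group as small as that with 5 to 9 (130 cells) may rest on 1 barcode. In AF76 SPP1 was at 14.7, 9.19, 27.2 and 68.1 CPM in the same groups, highest where SCG2 was highest. The first of these holds the leukocyte barcode with 317 SPP1 UMIs, and no level without single barcodes is given for these groups. CXCL14 in cells with 50 or more was at 99.1 and 33.3 CPM, with an uneven course below. SPP1 was at 10 or more UMIs in 11 cells of AF75 and 36 of AF76, and SCG2 was too in 0 and 14 of these. With 11 such cells, the 0 of AF75 says little.

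**Figure D3:**
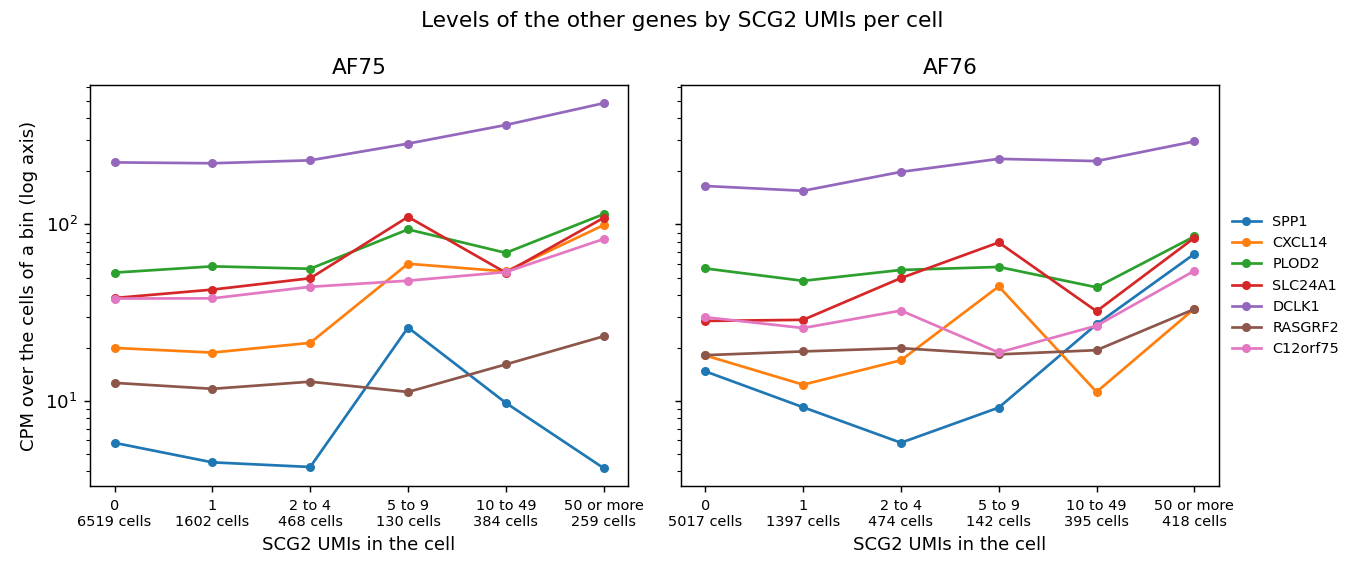
Levels of the other genes over cells grouped by their SCG2 UMIs. The numbers of cells stand below each group.

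Genes outside the 8, chosen after seeing their values, also went with high SCG2. ADCYAP1, the neuropeptide PACAP, was at 8.69 CPM in the high cells of AF75 against 2.69 CPM in the rest, and at 17.6 against 0.610 CPM in AF76. ADCYAP1 was thus higher in the SCG2-high cells by 3.22-fold (2.44–4.20) and 28.8-fold (21.5–39.1). In cluster 5 ADCYAP1 had no UMI in either follicle, where 3 counts set the limit. ESM1 was at 67.4 against 36.0 CPM and at 89.6 against 42.2 CPM, and AP1S3 and ALDH1A2 were also higher.

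The other 7 genes were then left out, and the genes most like each of the 8 across cells were sought among 10523 with a UMI in at least 1% of the cells of each follicle. Their r was low too, and by the smaller r of the 2 follicles it was below that with another of the 8 for SCG2, CXCL14, PLOD2, DCLK1 and C12orf75. Ordered by the smaller r of the 2 follicles, SLC24A1 was most like the steroid enzyme CYP11A1 (r = 0.235 and 0.204), then ACTR3 and NR5A2. PLOD2 was most like GAPDH (0.121 and 0.145), LDHA and SLC16A3, genes of glycolysis and lactate export. C12orf75 was most like TKT (0.180 and 0.146), VIM and NR2F1. RASGRF2 was most like MGARP (0.154 and 0.153), ABL2 and RPS6KA3, and DCLK1 most like TCAF1 (0.102 and 0.123), HIF1A and ESM1. For SPP1 (ATP5F1C, PRDX2, RGS2), SCG2 (WFDC1, RRBP1, ESM1) and CXCL14 (ANXA2, ENSSSCG00000040203, TKT) r with these outside genes was at most 0.0514, 0.101 and 0.0924.

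Cells that carry many of the 8 genes were rare. At 5000 thinned UMIs, 71 AF75 cells and 58 AF76 cells had 5 or more, 47 and 43 of them in cluster 5, and no cell had all 8. Cluster 5 cells carried a mean of 3.79 and 3.56, against 1.13 and 0.967 in cluster 0. These 71 and 58 cells were set against 8506 and 7193 with at most 2, over 7188 genes other than the 8 with at least 1000 UMIs in each follicle. In both follicles 2.45% of genes (176) were at least 1.5-fold higher and 3.1% (223) at least 1.5-fold lower. The doublet score called 5.63% and 10.3% of the cells with 5 or more.

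NR2F1, an orphan nuclear receptor, was at 213 CPM against 19.8 CPM in AF75 and at 157 against 16.2 CPM in AF76, 10.7-fold (9.16–12.5) and 9.65-fold (8.07–11.5). ESM1, a secreted proteoglycan, was at 246 against 33.0 CPM and at 618 against 41.1 CPM. NR2F1 and ESM1 had the largest smaller fold of the 2 follicles among the 7188 genes tested, which leave out the 8. ALDH1A2, under the limit of 1000 UMIs, was at 19.5-fold (15.8–24.0) and 11.7-fold (7.52–17.6). DIRAS3, a RAS-family GTPase, was at 88.2 against 10.8 CPM and at 76.7 against 12.4 CPM. OSGIN2, TM4SF1, SHTN1, TMEM47, MED14, ABHD4 and GLDN followed, at 3.25-fold to 4.18-fold.

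Lists tied to the roles of the 8 genes were then counted in these cells, beside the 2.45% and 3.1% above, and the difference from those shares was not tested. Of 5 osteopontin receptor genes tested, ITGB5 was higher (4.20- and 2.59-fold) and CD44 lower (0.573 and 0.623), and ITGB1 and ITGAV, the most abundant, were not past 1.5-fold in both. Of 4 granin and granule processing genes none passed 1.5-fold in both follicles. PAM, CHGA and SCG5 were the most abundant of that list, which leaves out SCG2. None of the chemokines and their receptors had enough UMIs, and CCL2, CXCL2 and CXCR4 led them. Most granin and chemokine genes were below the limit of 1000 UMIs and were not compared, so these counts say little of those lists. Below it, the granin gene VGF, chosen after its values were seen, was at 2.80-fold (1.20–5.57) and 8.98-fold (5.78–13.4). CHGB and CHGA did not go with it: CHGB, also below the limit, was at 0 (up to 0.953) and 0.534 (0.0134–3.01). CHGA, above the limit, was at 0.841 and 0.690, and SCG5, also above it, at 1.20 and 1.16. Of the same list below the limit, SYT7 (7.43 and 3.80) and RAB27A (3.27 and 5.92) were higher and CPE (0.708 and 0) lower. SYT7 in AF76, RAB27A in AF75 and CPE in both follicles had intervals that reach past 1.

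Of 13 collagen hydroxylation and crosslinking genes LOX was lower (0.554 and 0.602) and none higher, and P4HA1 and SERPINH1 were not past 1.5-fold in both. Of 18 hypoxia-inducible factor targets PFKFB4 was higher (1.53, interval 0.891–2.47, and 1.77) and EGLN1 (0.654 and 0.539) and MXI1 (0.453, and 0.623, interval 0.321–1.09) lower, with ENO1, ALDOA and DDIT4 the most abundant. None of 3 calcium exchangers and pumps (ATP2A2, ATP2B1, ATP2B4) passed 1.5-fold in both follicles, nor did the 1 doublecortin gene tested. DCLK2, DCLK3 and DCX were the most abundant of the doublecortin list, which leaves out DCLK1. No other SLC24A gene had enough UMIs to be compared, and so few genes say nothing of the families of SLC24A1 and DCLK1.

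Of 9 steroid genes FDXR was higher (3.27 and 1.99) and CYP19A1 lower (0.637 and 0.663, both intervals reaching past 1), and CYP11A1 was at 1.41 and 1.32. SCARB1 and FDX1 followed it in level. Of 6 mural markers TGFB3 (0.269 and 0.353) and IL33 (0.617 and 0.529), both leading genes of cluster 0, were lower and none higher. Of 2 cumulus markers tested TNFAIP6 was lower (0.0923 and 0.241), and VCAN was lower in AF75 (0.589) and higher in AF76 (2.35). ISG15 (0.185 and 0.655) and MX1 (0.107, and 0 UMIs in AF76) were lower, the 2 interferon genes tested. TGFB3 and IL33 were thus lower in both follicles, while the cumulus marker VCAN differed between them. VCAN was highest in cluster 2 (8515 and 2048 CPM), which has 884 cells in AF75 and 30 in AF76 and none with 5 or more of the 8 genes; its part in the VCAN values was not tested. The follicles also differed in the 3 cycling markers tested: CENPF was at 0.975 and 3.97, UBE2C at 0.581 and 3.99 and TOP2A at 0.804 and 4.84, higher in AF76 alone. Of the cycling-like cluster 4, 0.881% of 454 AF75 cells and 2.52% of 119 AF76 cells had 5 or more. The cycling markers summed to 1328 and 1543 CPM there, against 13.6 and 4.20 CPM in cluster 5, and the part of these cells was not tested.

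At the lower limit on genes the barcodes just outside and just inside were compared, with no test. Barcodes with 1750 to 1999 genes numbered 154 and 252, and those with 2000 to 2249 genes 278 and 308. SCG2 had 279 CPM (AF75) and 154 CPM (AF76) just under the limit, and 198 and 139 CPM just over it. DCLK1 was at 189 and 113 CPM under it and at 274 and 101 CPM over it. SCG2 and DCLK1 were thus found on both sides of the limit. On both sides SCG2 was lower in AF76, with intervals that do not overlap. This is opposite to its order over all cells within the limits, and the cause was not tested.

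The 250 bases upstream of all 8 genes were found in RefSeq (Sscrofa11.1). C12orf75 was matched there to the symbol C5H12orf75, and this match is not certain. Promoters are shown for SPP1, SCG2 and CXCL14, the secreted proteins. Searched on both strands were ACGTG and GCGTG (core of the hypoxia response element), AAGGTCA (NR5A1), TGACGTCA and TGACG (cAMP response element and its part, where TGACG lies inside TGACGTCA), TGANTCA (AP-1) and TATAAA. Capitals mark the matches. A match describes letters and is no site. SPP1 lies at chr8:131085335-131085584, minus strand, SCG2 at chr15:125426304-125426553, minus strand, and CXCL14 at chr2:137813119-137813368, minus strand.
SPP1: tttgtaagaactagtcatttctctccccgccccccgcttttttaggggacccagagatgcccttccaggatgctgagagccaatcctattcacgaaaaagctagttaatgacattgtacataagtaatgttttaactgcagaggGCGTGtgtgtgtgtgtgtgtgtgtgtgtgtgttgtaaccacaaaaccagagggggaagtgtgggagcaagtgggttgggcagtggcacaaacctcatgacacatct
SCG2: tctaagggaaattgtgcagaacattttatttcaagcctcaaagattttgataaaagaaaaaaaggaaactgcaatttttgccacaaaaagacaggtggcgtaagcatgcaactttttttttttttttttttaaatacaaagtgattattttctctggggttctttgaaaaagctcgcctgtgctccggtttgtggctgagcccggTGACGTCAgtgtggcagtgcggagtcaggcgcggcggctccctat
CXCL14: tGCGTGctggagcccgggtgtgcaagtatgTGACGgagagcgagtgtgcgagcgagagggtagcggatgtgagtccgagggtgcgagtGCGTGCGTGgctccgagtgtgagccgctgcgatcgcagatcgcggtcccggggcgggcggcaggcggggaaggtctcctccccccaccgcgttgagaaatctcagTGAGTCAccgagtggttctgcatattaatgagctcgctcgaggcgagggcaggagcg

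SCG2 alone of the 8 genes had the full TGACGTCA, which 1.63% of 20664 promoters have. GCGTG lay before SPP1, CXCL14, PLOD2 and C12orf75 (31.2% of promoters), TGACG before SCG2, CXCL14 and C12orf75 (19.2%), TGANTCA before CXCL14 and RASGRF2 (5.48%) and ACGTG before RASGRF2 (18.2%). AAGGTCA (3.25%) and TATAAA (10.4%) were before none, and SLC24A1 and DCLK1 had none of the motifs in this window.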

How the data were processed

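Somatic cells of 2 pig follicles were measured by 10x single-cell RNA sequencing. The authors deposited the whole UMI count of each gene and called barcode, unfiltered. Members and lists were chosen with earlier results of these data known. Cells had 2000 to 5000 genes and under 7% mitochondrial UMIs. Doublets were scored in the manner of DoubletFinder and kept; removing the 6.9% with the highest score was an alternative. Seurat 5.3.0 (R 4.3.3) integrated the follicles over 2000 variable genes without the 8 genes and clustered 40 components at the lowest resolution, 0.26, that gave 6 clusters. Python 3.11.15, numpy 2.4.6, scipy 1.17.1, pandas 2.3.3 and scikit-learn 1.9.0 gave CPM with exact Poisson intervals, Clopper-Pearson shares and conditional ratios. Correlation used ln(1 + 10000 × UMI / total). No test was made, since each follicle is 1 library. Named are the 8 genes, the 3 most like each, the 10 with the largest smaller fold in cells with many of the 8, the 3 of highest level and those past 1.5-fold in each list, the most abundant gene of other marker lists and the 3 leading genes of each cluster, apart from results of 2 lists that are not reported here. Alternatives changed limits, doublets, depth, measure, clustering and barcodes, some chosen after seeing the data.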

Additional observations from a re-analysis of the deposited data

Results flagged for a closer look

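Among clusters 0, 1, 4 and 5, some genes had ratios of AF76 to AF75 in opposite directions, with intervals that leave out 1. PLOD2 was at 1.07 in cluster 0 and 0.769 in cluster 4. SLC24A1 was at 1.30 in cluster 4, but at 0.763 in cluster 0, 0.760 in cluster 1 and 0.572 in cluster 5. C12orf75 was at 1.74 in cluster 4, but at 0.588 in cluster 0 and 0.684 in cluster 5. Without the top barcode of each cluster and follicle, chosen after seeing the data, cluster 4 gave 1.19 (0.916–1.54) for SLC24A1, which no longer leaves out 1, 1.40 (1.09–1.79) for C12orf75 and 0.657 (0.538–0.798) for PLOD2. Cluster 2 has 30 cells in AF76 and was not searched; SCG2 was there at 0.345 (0.183–0.592), from 13 AF76 UMIs, against 1.57 in cluster 0 and 1.59 in cluster 1. The difference between clusters was not tested.

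Barcodes with fewer than 2000 genes, which the levels within the limits leave out, also hold high counts. At least 10 UMIs of SCG2 were in 26 of these in AF75 and 59 in AF76, and at least 10 of DCLK1 in 20 and 10. Among them SPP1 (5.52 and 5.00 CPM) and RASGRF2 (15.3 and 13.0 CPM) were not higher in AF76, with intervals that overlap. Above 5000 genes SPP1 (23.0 and 9.79 CPM), CXCL14 (24.2 and 35.0 CPM) and SLC24A1 (50.2 and 71.5 CPM) turned direction. Single barcodes there held 89 of 108 AF75 SPP1 UMIs, 83 of 186 AF76 CXCL14 UMIs and 161 of 380 AF76 SLC24A1 UMIs. The other genes kept their direction in each of these sets, with no test. At 7% mitochondrial UMIs or more, with 2000 to 5000 genes, SPP1 (4.13 and 2.19 CPM) and DCLK1 (253 and 277 CPM) turned direction. Their intervals overlap between the follicles, and the rest of the genes kept their direction there.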

How the results depend on the processing

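The log2 ratio of AF76 to AF75 kept its sign for each gene under 10 alternatives: SPP1 from 1.23 to 1.74, SCG2 from 0.67 to 0.78, RASGRF2 from 0.46 to 0.61, PLOD2 from -0.09 to -0.00096, CXCL14 from -0.63 to -0.38, SLC24A1 from -0.42 to -0.29, DCLK1 from -0.50 to -0.41 and C12orf75 from -0.45 to -0.40. Of these values 21 moved beyond the counting interval and 59 did not. For PLOD2 the main ratio of 0.972 (0.938–1.01) gives no clear direction. Genes past 1.5-fold numbered 2 or 3 of the 8. The third was RASGRF2, upward, except in cells thinned to 5000 UMIs, where it was CXCL14, downward. Pairs with r of at least 0.1 in both follicles fell from 5 to 1 with Spearman correlation, 3 in cells thinned to 5000 UMIs, 3 in all deposited barcodes and 0 with cluster 5 left out, the last chosen after seeing the data; the cause was not tested. In cells with many of the 8 genes, a limit of 200 UMIs gave 346 genes higher and 517 lower, in place of 176 and 223, from more genes tested. Cluster 0 alone gave 103 higher and 224 lower, and the cause was not tested. The counts of cluster 0 rest on few cells, 0.269% of 5959 in AF75 and 0.143% of 5576 in AF76. At resolution 0.8, 7 of the 8 genes peaked in the same cluster in AF75, and 8 otherwise. Leaving out leukocyte barcodes, cluster 5 or the top barcode was chosen after seeing the data. SPP1, CXCL14 and RASGRF2 had the fewest UMIs, so their counting intervals are the widest relative to their levels.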

Other observations

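Markers of other cell types were at these summed levels over all cells. Theca and stroma markers summed to 1202 CPM for AF75 and 1129 CPM for AF76, with RGS5 the most abundant (876 and 588 CPM). Nerve and neuroendocrine markers, a list that matters for SCG2, summed to 119 and 86.8 CPM, with CHGA at 87.4 and 59.9 CPM and STMN2 at 0 in both. Endothelial markers summed to 17.1 and 11.9 CPM, with CDH5 at 0 in both, and surface epithelium markers to 10.6 and 10.9 CPM, with EPCAM leading. Oocyte markers summed to 4.97 and 5.21 CPM, nearly all GDF9, with BMP15 and ZP3 at 0. Red blood cell markers summed to 2.54 and 46.0 CPM, nearly all HBB. Cycling markers summed to 97.5 and 36.7 CPM, with CENPF leading, and interferon genes to 192 and 177 CPM, with ISG15 leading. Their part in the levels of the 8 genes was not tested.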
